A study of Mus musculus with 15 samples.

Results

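Peaks of the rod transcription factor NRL in a first intron, more than 3000 bp from the nearest transcription start site (TSS), numbered 567 of the 8996 quantified peaks (6.30%). They were chosen by position alone. The authors' annotation places each one in an intron, that intron is the first of its transcript, and the distance to the nearest TSS exceeds 3000 bp in either direction. NRL is a basic leucine zipper factor of the Maf family that directs newborn photoreceptor precursors to the rod fate and, with the homeodomain factor CRX, activates rod genes. Such factors bind both promoters and enhancers, and long first introns are a common location of enhancers. In CUT&RUN an antibody bound to the factor recruits micrococcal nuclease, which cuts out the DNA beside it, so that the reads in a peak measure how much DNA was released there.

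The libraries came from retinas of C57BL/6J mice at postnatal day 2 (P2), P4, P10 and P28, each from 250000 dissociated cells probed with the same anti-NRL antibody. The labels give no mutation, treatment or transgene in any group. Of the libraries they list, 3 for P2 and 4 for every later age, the deposited table quantifies 2 per age. These are replicates 1 and 4 for P10, and replicates 3 and 4 for the remaining ages. The labels do not say whether these came from separate animals, so p-values measure only the spread between these libraries. Because whole retina was used, a change in the number of cells in which NRL is bound and a change in binding per cell cannot be told apart.

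Signal is given as reads in a peak scaled to its length in kilobases and to the library (RPKM), rebuilt from the deposited values with each peak's own width. The 8 libraries held between 49430 and 227692 reads in all peaks and between 3009 and 15602 in the first-intron peaks. The median first-intron peak held 3 to 5 reads per library at P2 and P28 and in P4 replicate 3, 8 in P4 replicate 4, and 12 and 15 at P10. A level of 3 reads in a peak of median width corresponded to 1.5 to 2.28 RPKM, depending on the library, so differences between low values are not resolved. Among marker genes of cell types, the rod markers Gnat1 and Pde6b each had 2 peaks within 3000 bp of their start. The strongest Gnat1 peak averaged 60.5 RPKM at P10. Of 3 cone markers, Gnat2 had 1 peak. No peak was nearest to any of 3 markers each of amacrine cells, bipolar cells, Müller glia, and microglia with vessels. All these markers were chosen with earlier results of these data known. The counts therefore describe the listed genes alone, cannot test the makeup of the tissue, and do not cover other genes of those cells. A peak was called between ages at a Benjamini-Hochberg adjusted p under 0.05 in limma on log2(RPKM + 1), fitted to all 8996 peaks. Differences on this scale understate the change of peaks with a low signal.

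The peaks were narrow, with a median width of 250 bp (96 to 775 bp) against 322 bp over all peaks. Their median distance to the nearest TSS was 13127 bp, with a range of 3003 to 878152 bp, and 331 lay over 10000 bp away. Of the 567, 365 (64.4%) lay downstream of the nearest TSS and 202 (35.6%) upstream of it. A gene identifier came with the annotated transcript of 477. For 428 of these, in 356 genes, the peak also lay inside the RefSeq span of that gene, and 413 of the 428 were in protein-coding genes. The other 49 lay outside it. The clearest case was a set of 19 peaks between bases 120251187 and 122294634 of chromosome 8, assigned to intron 1 of one Galnt2 transcript, whereas RefSeq places Galnt2 between 124231394 and 124345722, and 13 of the 19 had Gse1 as their nearest TSS. A peak is therefore named below by the gene whose intron holds it where RefSeq agrees on the span, and otherwise as the peak nearest a given TSS.

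No genome sequence was at hand for these intervals, but 6 of the peaks overlapped the 300-base windows around a RefSeq start in the RefSeq table of the build GRCm38.p6, which the submitters' processing notes name. These starts belong to Zc3h12c itself or, for the other peaks, to a RefSeq gene other than the one the peak is named after. The sequences of 3 peaks that such a window covers in full, and of part of one more, are shown to give examples of sequence beneath first-intron signal with and without the motifs below. The other stretches that could be read held neither motif and are not shown. They were 203 bases of the same peak nearest Exosc6, 259 bases of a second peak nearest Nectin1 and 220 bases of a peak nearest Zfp287. The peaks came from that overlap, and the stretch of the Exosc6 peak was chosen because it holds both motifs. Capitals mark TGCTGA, the core of the Maf half-site that NRL recognises, or GGATTA, a site type of CRX and other OTX-like homeodomain factors, on either strand, so that TCAGCA and TAATCC are the same sites read backwards. Sequences run 5′ to 3′ on the strand of the RefSeq gene named.
Zc3h12c, chr9:52149373-52149586, minus strand, whole peak: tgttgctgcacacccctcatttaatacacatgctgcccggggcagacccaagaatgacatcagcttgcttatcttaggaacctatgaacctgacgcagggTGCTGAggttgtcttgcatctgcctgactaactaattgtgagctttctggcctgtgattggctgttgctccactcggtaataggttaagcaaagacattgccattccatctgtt
Gm46108 within Nectin1, chr9:43785045-43785233, minus strand, whole peak: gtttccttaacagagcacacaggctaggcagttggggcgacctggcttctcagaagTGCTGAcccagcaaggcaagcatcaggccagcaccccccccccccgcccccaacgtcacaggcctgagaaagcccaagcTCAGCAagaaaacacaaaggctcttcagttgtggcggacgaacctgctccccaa
Gm40078 within Trim2, chr3:84228729-84228883, plus strand, whole peak: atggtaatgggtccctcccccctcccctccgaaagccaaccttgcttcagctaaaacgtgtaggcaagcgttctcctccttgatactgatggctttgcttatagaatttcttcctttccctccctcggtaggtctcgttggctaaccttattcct
Gm38523 beside Exosc6, chr8:111061754-111061903, minus strand, part of the peak: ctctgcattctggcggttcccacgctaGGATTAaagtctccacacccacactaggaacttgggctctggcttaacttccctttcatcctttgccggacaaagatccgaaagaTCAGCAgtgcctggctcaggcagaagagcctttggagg

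The Zc3h12c peak, in the gene of a zinc finger ribonuclease of the regnase family, held 1 TGCTGA and lay just upstream of a RefSeq start at base 52149363, although the authors' distance to the nearest TSS is 18525 bp. Its signal was 10.6 and 4.45 RPKM at P2, 4.15 and 8.67 RPKM at P4, 2.21 and 0.583 RPKM at P10, and 0 in both P28 libraries. It was lower at P28 than at P2 (log2 difference -2.99 ± 0.50 SE, adjusted p = 0.00051), and this call held with each library left out in turn. The Nectin1 peak, in the gene of a cell adhesion protein, held 2 copies of TGCTGA, 1 of them in the longer form TGCTGAC. It had 0.666 and 4.03 RPKM at P2, 1.34 and 3.78 RPKM at P4, 8.34 and 11.2 RPKM at P10 and 1.64 and 5.20 RPKM at P28. Both P10 libraries stood above all the others, and P10 was higher than P4 (1.67 ± 0.57, adjusted p = 0.045, and 0.14 to 0.40 without P10 replicate 1, P10 replicate 4 or P4 replicate 3). The Trim2 peak, in a ubiquitin ligase gene, held neither motif and was also higher at P10 than at P4, at 6.10 and 8.85 RPKM in the P10 libraries against 0 and 3.69 RPKM in the P4 libraries (1.95 ± 0.60, adjusted p = 0.032, and 0.091 to 0.48 without those same libraries). The stretch of the Exosc6 peak held 1 GGATTA and 1 TGCTGA and covered 38.2% of the peak, which had 1.58 and 3.33 RPKM at P28 against 15.6 and 8.89 RPKM at P10 (-1.94 ± 0.61, adjusted p = 0.027, and 0.056 to 0.21 without P10 replicate 1, P10 replicate 4 or P28 replicate 3). After centring on the library median, the calls of Nectin1, Trim2 and Exosc6 were lost (adjusted p = 0.35, 0.23 and 0.12). Each of these peaks was, of the authors' lists of peaks per age, in that of P10 alone. They thus entered the table through being high at P10, and the comparisons with P10 are not independent of this. The Zc3h12c peak was in the P4 list alone. As a background, TGCTGA occurred in 19.5% of all 32817 RefSeq start windows of 300 bases and GGATTA in 7.06%, so a single copy is common in sequence of this length. The windows of the host genes, 380 windows of 272 genes, held TGCTGA in 15% and GGATTA in 6.58%. A match describes letters only.

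The signal of the first-intron peaks had its highest point at P10. The median peak had 1.84 and 1.99 RPKM in the P2 libraries, 2.43 and 4.51 in the P4 libraries, 8.42 and 7.85 in the P10 libraries and 2.82 and 2.98 in the P28 libraries. P4 replicate 4 stood above P4 replicate 3 and below both P10 libraries. Over all peaks the corresponding medians were 2.24 and 2.09, 2.52 and 4.48, 6.29 and 6.09, and 3.81 and 3.66 RPKM. The first-intron peaks thus lay above the median of all peaks at P10 and below it at P2 and P28. Later-intron peaks beyond 3000 bp also lay above it at P10 (8.35 and 8.03 RPKM) and below it at P28 (2.95 and 2.96 RPKM). The share of the reads in peaks that fell in first-intron peaks was 4.75% and 6.09% in the P2 libraries, 5.65% and 6.37% in the P4 libraries, 7.03% and 6.85% in the P10 libraries and 4.65% and 5.36% in the P28 libraries. For later introns it was 12.9% and 12.7% at P10 and 8.53% and 9.49% at P28. The mean signal was highest at P10 in 461 of the 567 (81.3%, against 70.4% of all peaks). It was highest at P4 in 55, at P28 in 27 (4.76%, against 18.2% of all peaks) and at P2 in 24. In later introns it was highest at P10 in 75.4% and at P28 in 7.12%, so both intron classes differed from all peaks in the same direction. These counts follow in part from how peaks entered the table. Of the 332 peaks in the authors' P10 list alone, which had to be high at P10, 324 had their highest mean there. Of the 163 in the P10 list and another, 134 did, and of the 72 not in the P10 list, 3 did.

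**Figure D1:**
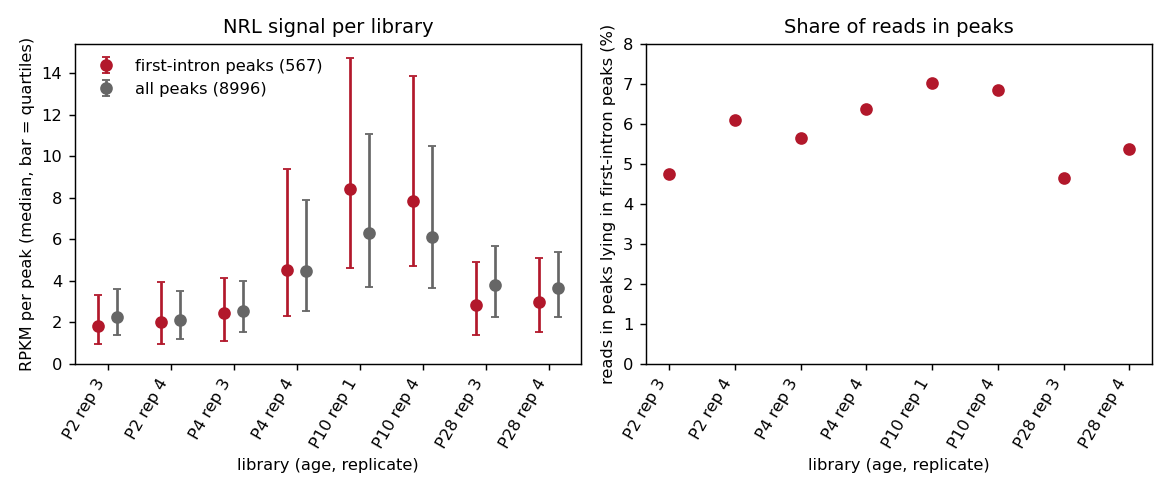
Left, median RPKM with quartiles of the 567 first-intron peaks and of all 8996 peaks in each of the 8 libraries; right, the percentage of reads in peaks that fell in the first-intron peaks. The P10 libraries, at medians of 8.42 and 7.85 RPKM, stand above the other 6, and the first-intron medians lie above those of all peaks only at P10 and, by a small margin, in P4 replicate 4.

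Any difference between the ages was called for 432 first-intron peaks (76.2%), where the share over all peaks was 45.9%. In later introns it was 858 of 1151 (74.5%) and at start sites 24.0%, so a high share was common to both intron classes. Of the 432, 249 were in the P10 list alone and had to be high at P10. Centring on the library median gave 204 calls and a pseudocount of 0.1 gave 184. Leaving out P10 replicate 1 gave 234, and leaving out P10 replicate 4 gave 271.

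The strongest first-intron sites had signal at every age. The peak nearest Msi1, the gene of the RNA-binding protein Musashi-1, lay 27179 bp upstream of that start (chr5:115402029-115402420). It had 27.0 and 42.7 RPKM at P2, 45.0 and 106 RPKM at P4, 203 and 151 RPKM at P10 and 103 and 137 RPKM at P28. The P28 libraries did not overlap the P2 libraries, and P28 was higher than P2 (1.78 ± 0.56, adjusted p = 0.038). That call was lost, at adjusted p between 0.076 and 0.22, when any P2, P10 or P28 library was left out, and after centring (0.056). Ebpl, a relative of the sterol isomerase gene Ebp, had a peak 8974 bp into the gene with 36.4 and 49.4 RPKM at P2, 55.7 and 119 RPKM at P4, 151 and 118 RPKM at P10 and 51.9 and 67.8 RPKM at P28, and no difference between ages was called (any age, adjusted p = 0.074). Pitpnm3 encodes a membrane-associated phosphatidylinositol transfer protein and is a cone-rod dystrophy gene in humans. Its peak had 21.8 and 30.1 RPKM at P2, 40.4 and 96.4 RPKM at P4, 144 and 119 RPKM at P10 and 51.0 and 42.5 RPKM at P28. The difference between ages was called (any age, adjusted p = 0.012) but was lost without P10 replicate 1, P10 replicate 4 or P2 replicate 3 (adjusted p between 0.067 and 0.14) and after centring (0.091). A peak in Anks1, an adaptor gene of Eph receptor signalling, was not in the P2 list and had the steepest course of the 6 strongest sites, with 6.43 and 5.67 RPKM at P2, 13.0 and 35.2 RPKM at P4, 129 and 116 RPKM at P10 and 39.5 and 40.4 RPKM at P28. It was higher at P28 than at P2 (2.54 ± 0.56, adjusted p = 0.0044), and this call held with each library left out in turn. The remaining pair of the 6 were a peak in Ppargc1b, the gene of a coactivator of mitochondrial genes whose nearest TSS was that of the rod phosphodiesterase gene Pde6a at 50876 bp, and one in the long non-coding RNA gene 5830408C22Rik. Their means at P10 were 123 ± 30.7 and 87.0 ± 4.48 RPKM (SD, n = 2).

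Ebpl also had a peak over its start, inside the RefSeq start window, shown here because this is the strongest first-intron site whose host promoter could be read and was itself bound. Neither motif was found in it.
Ebpl start window, chr14:61360396-61360695, minus strand: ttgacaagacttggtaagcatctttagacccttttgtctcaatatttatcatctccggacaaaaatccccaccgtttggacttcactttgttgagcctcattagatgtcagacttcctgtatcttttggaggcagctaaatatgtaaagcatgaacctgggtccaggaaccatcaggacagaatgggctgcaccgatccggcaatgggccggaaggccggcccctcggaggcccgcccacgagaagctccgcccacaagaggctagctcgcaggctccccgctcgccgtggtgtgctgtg
The start-site peak had 2.02 and 2.45 RPKM at P2, 2.45 and 5.51 RPKM at P4, 6.08 and 4.81 RPKM at P10 and 1.99 and 4.21 RPKM at P28. The intronic peak of the same gene stood above it in every library. Signal at the strongest intronic site of this gene did not come with a strong peak at the start.

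Between P4 and P2 no first-intron peak was called in limma, and none of all peaks (0.00%). The median log2 difference of P4 over P2 was 0.58, against 0.48 over all peaks. At an unadjusted p under 0.05, 115 first-intron peaks were higher at P4 (20.3%, where the share over all peaks was 14.4%) and 8 were lower (0.778% over all peaks), while limma-voom, run on whole reads, called 2 as higher. The count depended on the 2 P4 libraries, which differ in level. Leaving out P4 replicate 3 gave 79 calls and leaving out P4 replicate 4 gave 0. Leaving out P2 replicate 3 gave 17, P2 replicate 4 gave 8, and either P28 library gave 16.

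Between P10 and P4, 189 first-intron peaks were higher at P10 and 19 were lower (36.7% called, against 17.1% over all peaks, where 15.6% were higher and 1.51% lower). The median log2 difference was 1.13, against 0.73 over all peaks. Of 1151 peaks in later introns, beyond the same limit, 313 were higher and 36 lower, with a median of 1.04. Peaks overlapping a start site had 221 of 4118 higher, 5 lower and a median of 0.59. When each library was centred on its median over all peaks, 41 first-intron peaks were higher and 35 lower, with a median of 0.42, so the count of higher peaks depends on the scale behind the deposited values. With a pseudocount of 0.1 in place of 1, no first-intron peak was called. Of the 189 higher peaks, 149 were among the 332 in the authors' P10 list alone, which entered the table through being high at P10, and 40 were among the 163 in the P10 list and another. Leaving out P4 replicate 3 gave 25 calls, P10 replicate 1 gave 35 and P10 replicate 4 gave 56.

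Among first-intron peaks higher at P10 than at P4, the largest difference by the rule for named peaks was in Atg4c, which encodes a protease of autophagy (chr4:99206419-99206642). Its peak had 16.9 and 20.1 RPKM in the P10 libraries and no read in either P4 library, at least 20.7-fold higher when 3 reads are set as the floor over the P4 libraries. It had 1.69 and 0 RPKM at P2 and 2.77 and 2.19 at P28. The peak was in the P10 list alone, so it had to be high at P10. The call (adjusted p = 1.5e-05) held with each library left out and after centring, and was lost with a pseudocount of 0.1 (adjusted p = 0.060). Sh3gl2, the gene of endophilin A1 in synaptic vesicle endocytosis, had 0.643 and 2.91 RPKM at P2, 0.648 and 7.29 RPKM at P4, 41.0 and 31.8 RPKM at P10 and 19.0 and 14.2 RPKM at P28. P10 was higher than P4 (3.33 ± 0.65, adjusted p = 0.0025, and 0.055 without P4 replicate 3). Jam2, a junctional adhesion gene, had 15.6 and 18.1 RPKM at P10 against 0 and 3.76 RPKM at P4 (3.03 ± 0.59, adjusted p = 0.0026, and 0.083 without P4 replicate 3). Arl13b, a GTPase gene of the cilium, had 19.4 and 19.9 RPKM at P10 against 0 and 5.69 RPKM at P4 (3.00 ± 0.65, adjusted p = 0.0052, and 0.11 without P4 replicate 3). The peak nearest Mdm1, a gene of a microtubule-binding centriole protein, had 25.8 and 8.94 RPKM at P10 against 0.433 and 1.95 RPKM at P4 (2.99 ± 0.53, adjusted p = 0.0010, and 0.054 without P4 replicate 3). In each of these the P10 libraries lay above both P4 libraries, and P4 replicate 3 was the lower of the P4 pair or tied with it.

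A smaller group ran the other way and had its signal at P2 and P4. Adgrl3, which encodes the adhesion receptor latrophilin-3, had 3.90 and 13.7 RPKM at P2, 7.20 and 19.1 RPKM at P4, 1.62 and 1.29 RPKM at P10, and no read in either P28 library. It was lower at P10 than at P4 (-2.39 ± 0.54, adjusted p = 0.0051), a call at adjusted p = 0.053 without P10 replicate 4 and 0.051 without P4 replicate 4. Ece1, the endothelin-converting enzyme gene, had 11.3 and 15 RPKM at P2, 10.5 and 32.6 RPKM at P4, 2.36 and 6.07 RPKM at P10 and 0.580 and 1.23 RPKM at P28. Its P10 libraries lay below both P4 libraries (-2.01 ± 0.58, adjusted p = 0.020), with adjusted p = 0.27 without P10 replicate 1 and 0.091 without P4 replicate 4. Siah3, a gene of the Siah family, had 1.14 and 2.71 RPKM at P10 against 7.36 and 15.5 RPKM at P4 (-2.06 ± 0.51, adjusted p = 0.0090), with adjusted p = 0.16 without P10 replicate 1 and 0.056 without P4 replicate 4. The peaks nearest Prelid2 and Rtl8a were also lower at P10, by -2.62 ± 0.53 (adjusted p = 0.0028) and -1.66 ± 0.55 (adjusted p = 0.039). Both calls were lost without P4 replicate 3 or P10 replicate 1, and that of Rtl8a also without P4 replicate 4 or P10 replicate 4, at adjusted p between 0.054 and 0.25.

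**Figure D2:**
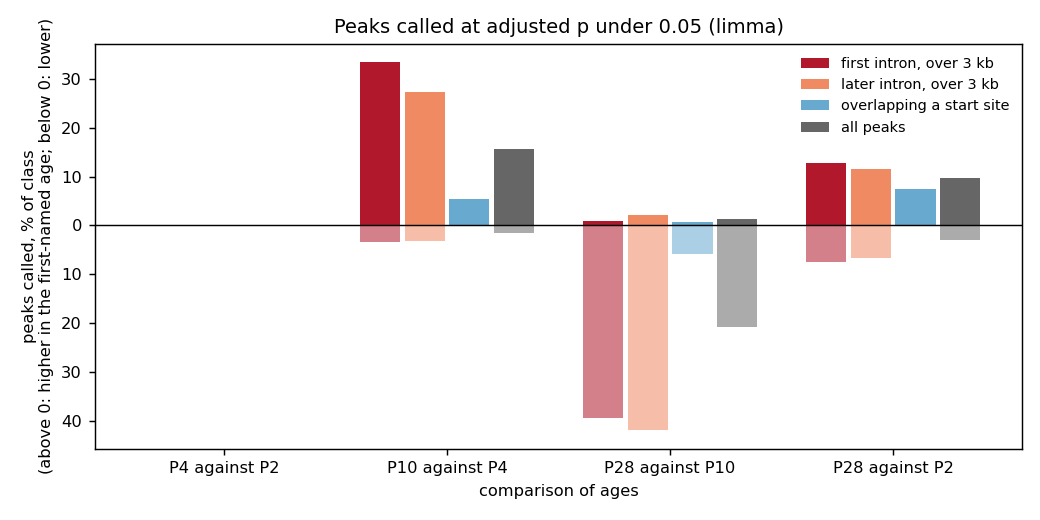
Percentage of peaks called at an adjusted p under 0.05 in each comparison of ages, higher in the first-named age above the line and lower below it, for first-intron peaks, later-intron peaks, peaks overlapping a start site and all peaks. Both intron classes have a larger share called than the start-site class in each of the 3 comparisons with calls, and no peak of any class is called between P4 and P2.

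Between P28 and P10, 223 first-intron peaks were lower at P28 and 5 were higher (40.2% called, against 21.9% over all peaks, where 20.7% were lower and 1.29% higher). The median log2 difference was -1.26, against -0.69 over all peaks, -1.29 in later introns and -0.33 at start sites. After centring, 92 were lower and 9 higher, with a median of -0.66, and a pseudocount of 0.1 gave 58 calls. Leaving out P10 replicate 1 gave 61 calls, P10 replicate 4 gave 88 and P28 replicate 3 gave 131. Of the 189 peaks that rose at P10 over P4, 81 also fell at P28. Over all peaks, 579 of the 1405 that rose also fell. These comparisons share the P10 libraries. Of the 223 lower at P28, 135 were in the P10 list alone, which entered the table through being high at P10, and 83 were in that list and another.

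Among the peaks named by rule, the lowest log2 difference of P28 over P10 was that of the peak nearest Gse1, at chr8:120338786-120338976, one of the set assigned to the Galnt2 transcript (-4.49 ± 0.58, adjusted p = 6.7e-05). It had 4.62 and 6.97 RPKM at P2, 6.65 and 16.4 RPKM at P4, 35.5 and 36.6 RPKM at P10 and 0 and 1.71 RPKM at P28. With 2 reads over the P28 libraries and 99 over the P10 libraries, the signal was 43.3-fold lower at P28 (11.7 to 363, exact 95% interval for counting error). The peak nearest Fignl2, a gene of the fidgetin family of ATPases, had 5.04 and 12.2 RPKM at P2, 13.2 and 35.4 RPKM at P4, 32.1 and 35.9 RPKM at P10 and 0.620 and 0.655 RPKM at P28, again from 2 reads at P28 and 53.8-fold lower than at P10 (14.6 to 449), with a log2 difference of -4.42 ± 0.58 (adjusted p = 6.8e-05). The counting intervals of these folds overlap. Arhgap31, a gene of a GTPase-activating protein of Rac and Cdc42, had a peak found in the lists of all 4 ages, with 14.3 and 20.3 RPKM at P2, 23.4 and 52.4 RPKM at P4, 32.9 and 44.6 RPKM at P10 and 2.07 and 3.27 RPKM at P28. It was lower at P28 than at P10 by -3.44 ± 0.56 (adjusted p = 0.00037). These calls held with each library left out in turn and after centring. Zfand3, a zinc finger gene, had no read at P28 against 13.6 and 9.09 RPKM at P10, at least 7.0-fold lower (adjusted p = 0.00037). The peak nearest Arid3b, a gene of an AT-rich DNA-binding protein, had 0 and 5.74 RPKM at P28 against 30.4 and 25.5 RPKM at P10 (-3.47 ± 0.69, adjusted p = 0.0021, and 0.051 without P28 replicate 3).

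The 5 peaks higher at P28 than at P10 had a low signal at every age and were all in the P28 list alone, so they had to be high at P28. None of these calls remained with a pseudocount of 0.1. None had the mean signal that the rule for named peaks asks for, so they are named after their values were seen. They lay in Adipor1, an adiponectin receptor gene, in Eloa, the gene of elongin A, and nearest Pcmtd1, Gm5535 and Eef2kmt. The Adipor1 peak had 3.74 and 3.51 RPKM at P28 against 1.27 and 0.335 RPKM at P10 (1.41 ± 0.46, adjusted p = 0.030, and 0.087 to 0.31 without any 1 of these 4 libraries). The Eloa peak had 3.21 and 5.94 RPKM at P28 against 0 and 0.646 RPKM at P10 (adjusted p = 0.0049, and 0.12 without P10 replicate 1), from 11 reads at P28 and 1 at P10, a ratio of 12.6 (1.83 to 541). Of the others, the call nearest Eef2kmt held with each library left out, and those nearest Pcmtd1 and Gm5535 did not.

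Between P28 and P2, 72 first-intron peaks were higher at P28 and 42 were lower (20.1% called, against 12.6% over all peaks, where 9.64% were higher and 3.00% lower). The median log2 difference was 0.46, against 0.57 over all peaks. After centring, 32 were higher and 75 lower, with a median of -0.12, so the direction of the median depends on the scale. A pseudocount of 0.1 gave 47 calls. Leaving out P2 replicate 4 gave 68 calls and P28 replicate 3 gave 72. In later introns, 134 of 1151 were higher and 77 lower, with a median of 0.31. At start sites, 309 of 4118 were higher and 7 lower.

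Among the peaks named by rule, the highest log2 difference of P28 over P2 was in Dpf3, which encodes a subunit of the BAF chromatin remodelling complex (chr12:83444555-83444886, 4635 bp upstream of the nearest start). It had 1.9 and 2.3 RPKM at P2, 9.18 and 29.7 RPKM at P4, 122 and 110 RPKM at P10 and 47.1 and 42.4 RPKM at P28. The difference of P28 over P2 was 3.89 ± 0.57 (adjusted p = 0.00013). Mapk8, the gene of the stress kinase JNK1, had 1.29 and 1.94 RPKM at P2, 3.89 and 5.83 RPKM at P4, 24.1 and 30.6 RPKM at P10 and 17.4 and 25.1 RPKM at P28, and the P28 and P10 libraries overlapped (P28 over P2, 3.08 ± 0.53, adjusted p = 0.00064). Gnb1, the gene of the beta subunit of rod transducin, had no read at P2, 1.67 and 1.88 RPKM at P4, 9.33 and 10.7 RPKM at P10 and 7.13 and 5.39 RPKM at P28, at least 4.2-fold higher at P28 than at P2 (adjusted p = 0.00028). Zfp472, a zinc finger gene, had 5.21 and 6.88 RPKM at P28 and no read at P2, at least 3.15-fold higher (adjusted p = 0.00075). The calls of these 4 held with each library left out in turn and after centring. Sh3gl2, described above, was also higher at P28 than at P2 (2.78 ± 0.65, adjusted p = 0.0080, and 0.053 without P2 replicate 3).

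Of the peaks lower at P28 than at P2, that of Adgrl3 was at least 6.35-fold lower (adjusted p = 0.00078) and that of Ece1 lower by -2.90 ± 0.58 (adjusted p = 0.0020), and both calls held with each library left out in turn and after centring. The peak nearest Pou4f1, the gene of a homeodomain factor of retinal ganglion cells, lay 108333 bp from that start and had 18.6 and 31.3 RPKM at P2, 33.4 and 53.1 RPKM at P4, 27.0 and 27.9 RPKM at P10 and 0.510 and 4.85 RPKM at P28. The P28 libraries stood below all 6 others, and the difference of P28 over P2 was -3.08 ± 0.61 (adjusted p = 0.0020, and 0.089 without P28 replicate 3). Ptprm, a receptor tyrosine phosphatase gene of cell adhesion, had 1.16 and 4.29 RPKM at P28 against 20.3 and 23.5 RPKM at P2 (-2.76 ± 0.57, adjusted p = 0.0031, and 0.082 without P28 replicate 3).

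**Figure D3:**
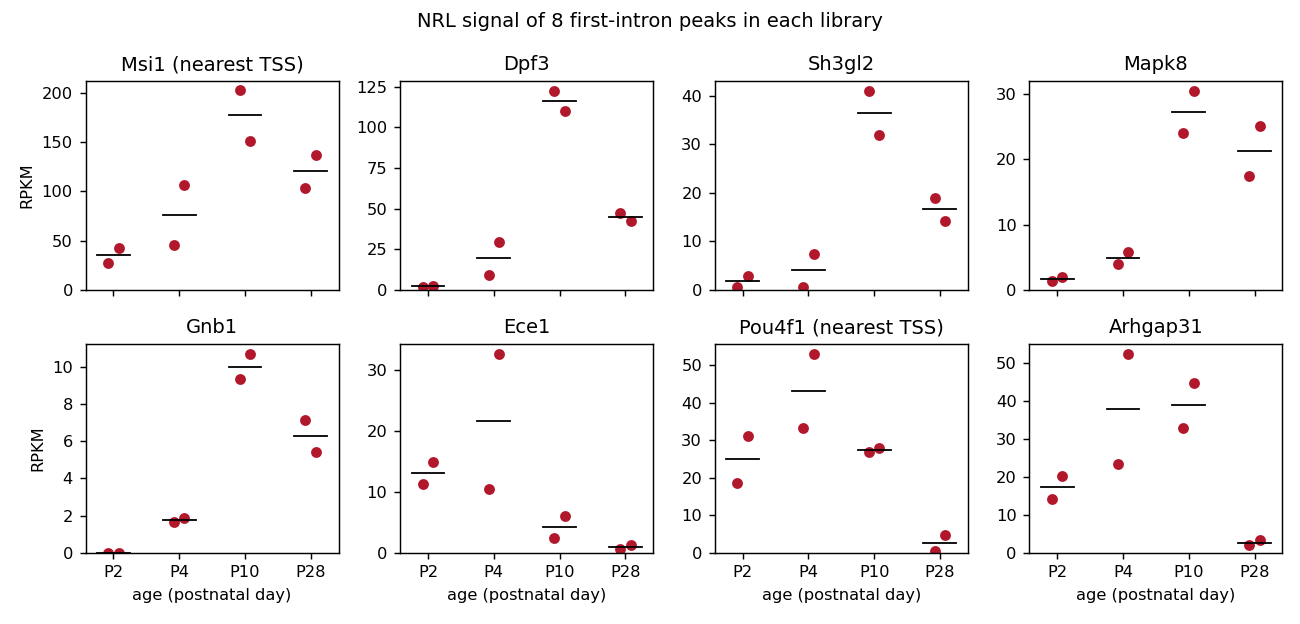
RPKM of 8 named first-intron peaks in each library (points; the bar is the mean of the 2 libraries of an age), with the peaks nearest Msi1 and Pou4f1 named by their TSS. The peaks near Msi1 and in Dpf3, Sh3gl2, Mapk8 and Gnb1 are highest at P10 and lower at P28 but still above P2, whereas Ece1, the peak nearest Pou4f1 and Arhgap31 have their lowest values at P28.

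The lists of peaks that the authors called at each age gave a second view of the same sites. First-intron peaks beyond 3000 bp numbered 63 of the 1221 entries at P2 (5.16%, with a Wilson 95% interval of 4.05 to 6.55%) and 156 of 3161 at P4 (4.94%, 4.23 to 5.75%). They numbered 498 of 7520 at P10 (6.62%, 6.08 to 7.21%) and 109 of 3482 at P28 (3.13%, 2.60 to 3.76%). The share was lowest at P28. Later-intron peaks had their lowest share there too, at 7.06%, against 12.6%, 11.8% and 12.8% in the P2, P4 and P10 lists. Of the 567 quantified peaks, 332 were in the P10 list alone (58.6%, against 41.9% of all peaks), 16 in the P28 list alone (2.82%, against 8.70%), and 21 in all 4 lists (3.70%, against 7.41%). The quantified set is the union of the lists, so a peak in the P10 list alone had to be high at P10. The same holds for the other lists.

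**Figure D4:**
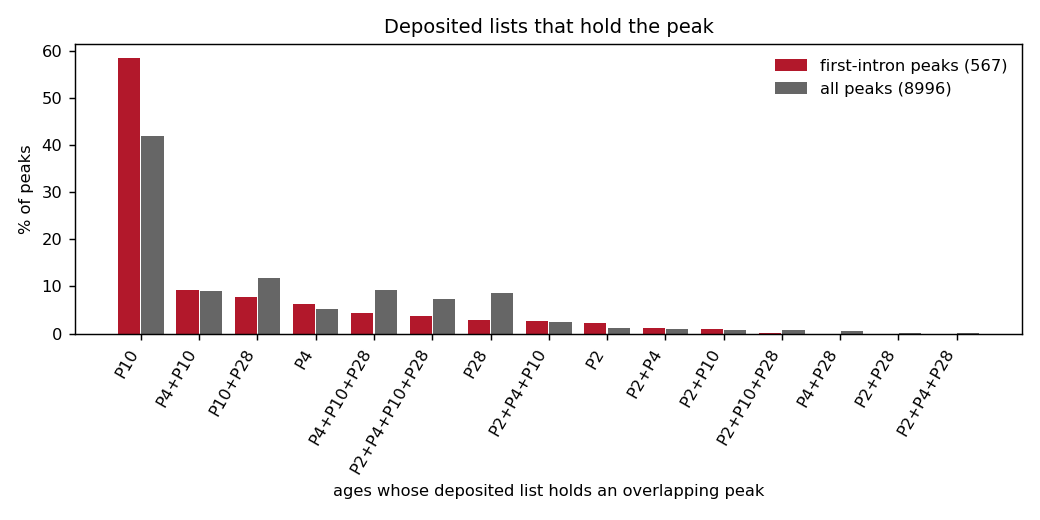
Percentage of the 567 first-intron peaks and of all 8996 peaks by the set of deposited lists that hold an overlapping peak. The P10 list alone holds 58.6% of first-intron peaks and 41.9% of all peaks, and the P28 list alone 2.82% and 8.70%.

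For 87 of the 342 protein-coding genes with such a peak inside their span, a second NRL peak overlapped the gene's start, which allows the sites to be set side by side. Between P10 and P4 the median log2 difference was 1.44 at the intronic site and 0.80 at the start. The intronic site was called higher in 39 of the genes and lower in 1, and the start higher in 14 and lower in 1, with 11 genes called at both. The intronic difference was the larger in 61 of the 87. Between P28 and P10 the medians were -1.27 and -0.54, with 35 intronic sites and 9 start sites lower, 2 intronic sites higher and no start site higher. Between P28 and P2 the medians were 0.88 and 0.78. These are counts in the same libraries, and no test of the difference between the sites was made.

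Single genes had their stronger site on either side. In Ebpl the intronic site held 42.9, 87.1, 134.7 and 59.9 RPKM in the mean at P2, P4, P10 and P28, and the start 2.24, 3.98, 5.45 and 3.10. In Gnb1 the start was the stronger, at 17.6, 42.9, 145.4 and 75.2 RPKM, and both its sites were higher at P10 than at P4, by 1.99 at the intron (adjusted p = 0.0051, and 0.054 to 0.063 without P10 replicate 1, P10 replicate 4 or P4 replicate 3) and by 1.87 at the start (adjusted p = 0.025, and 0.099 to 0.25 without those same libraries). After centring, these were lost too (0.070 and 0.076). In Mapk8 the intronic site was higher at P10 than at P4 by 2.28 (adjusted p = 0.0061, and 0.065 and 0.087 without P10 replicate 1 or 4), and the start-site peak differed by -0.08 (adjusted p = 0.92). In Arl3 the differences were 2.57 at the intron (adjusted p = 0.0033, and 0.051 and 0.057 without P10 replicate 1 or 4) and 1.14 at the start (adjusted p = 0.094).

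**Figure D5:**
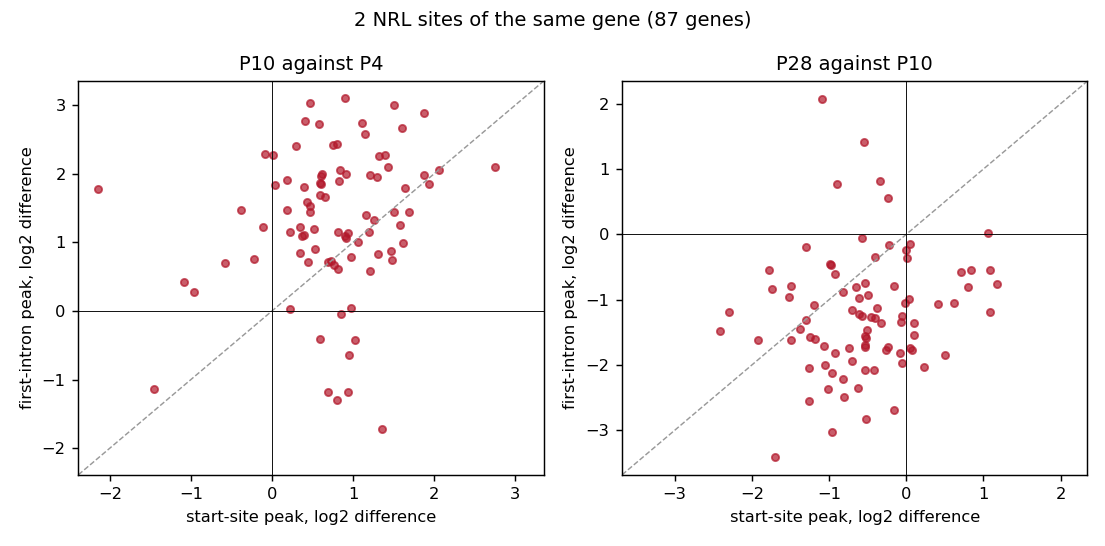
Log2 difference of the first-intron peak against that of the start-site peak in 87 genes that have both, for P10 against P4 and P28 against P10; the dashed line marks equal differences. For P10 against P4, 61 genes lie above the line, and for P28 against P10, 20 do. Each gene is shown by its peak of highest mean RPKM at either place. Entry of peaks into the table through being high at P10 was not allowed for.

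By function, the genes with a first-intron peak included some genes of the rod programme. A gene counted here if the peak lay inside its RefSeq span, as it did for 356 genes. The share among all genes was not worked out, so the counts per list are not read as high or low. Of a list of 35 genes of phototransduction and the rod outer segment, 4 had such a peak: Gnb1, Prph2, Rp1 and Rp1l1. Of these, 3 were higher at P10 than at P4 and 3 were higher at P28 than at P2. Among all 567 first-intron peaks 189 and 72 were higher, and among all peaks 15.6% and 9.64%. The counts include the call of Rp1 at P10 over P4 (limma adjusted p = 0.045) and that of Prph2 at P28 over P2 (0.029). Both were lost after centring (0.34 and 0.063) and when some single libraries were left out. Prph2, which encodes peripherin-2 of the disc rim, had 0.965 and 2.19 RPKM at P2, 3.41 and 9.30 RPKM at P4, 26.0 and 28.2 RPKM at P10 and 6.53 and 10.0 RPKM at P28. It rose at P10 over P4 (2.06 ± 0.55, adjusted p = 0.015) and fell at P28 (-1.62 ± 0.55, adjusted p = 0.037), calls that were lost, at adjusted p between 0.074 and 0.23, when any library of the ages compared other than P4 replicate 4 was left out, and after centring (0.068 and 0.11). Rp1, the gene of a microtubule protein of the outer segment axoneme, had 7.0 and 5.99 RPKM at P28 against 1.9 and 0.818 RPKM at P2 (1.70 ± 0.48, adjusted p = 0.023, and 0.072 to 0.21 without P2 replicate 4, P28 replicate 3 or P28 replicate 4, and 0.087 after centring). Rp1l1, a related gene, was not called at any age (adjusted p = 0.069).

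Of 21 genes of photoreceptor transcription factors, 5 had 6 first-intron peaks: Crx, Esrrb, Mef2d, Prdm1 and Rora. At P10 over P4, 2 of the 6 were higher, where the count among all first-intron peaks was 189 of 567. At P28 over P2, 3 of the 6 were higher, where it was 72 of 567. Esrrb, a nuclear receptor gene needed for rod survival in mice, had 0.271 and 1.23 RPKM at P2, 0.821 and 1.54 RPKM at P4, 10.9 and 6.18 RPKM at P10 and 8.01 and 6.70 RPKM at P28, with no overlap between the older and the younger pair of ages. P28 was higher than P2 by 2.31 ± 0.48 (adjusted p = 0.0032), with each library left out in turn as well. Crx, NRL's partner in rod gene activation, had 10.1 and 6.73 RPKM at P28 against 2.16 and 0.652 RPKM at P2 (2.02 ± 0.56, adjusted p = 0.021, and 0.18 without P2 replicate 4, 0.10 without P28 replicate 3 and 0.051 after centring). Mef2d, whose product acts with CRX, had 7.97 and 10.0 RPKM at P28 against 1.21 and 2.45 RPKM at P2 (1.85 ± 0.53, adjusted p = 0.025, and 0.082 to 0.16 without P2 replicate 3 or either P28 library). Rora, a nuclear receptor gene, ran differently, with 1.82 and 3.07 RPKM at P28 against 10.7 and 15.5 RPKM at P10 (-2.04 ± 0.53, adjusted p = 0.0090, and 0.051 to 0.11 without P10 replicate 1, P10 replicate 4 or P28 replicate 3).

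In the lists of other photoreceptor genes, Arl3 was the only one of 28 cilium genes with a first-intron peak and had 2. Its product acts in the transport of lipid-modified proteins to the outer segment. The stronger of the pair had 4.06 and 4.09 RPKM at P2, 5.01 and 10.7 RPKM at P4, 45.2 and 53.2 RPKM at P10 and 17.8 and 21.7 RPKM at P28. The other had 7.65 and 13.3 RPKM at P10 against 0 and 1.39 RPKM at P4, and its rise held with each library left out in turn (2.85 ± 0.50, adjusted p = 0.00092). Of 23 synapse genes, Elfn1 and Stx3 had one each. Stx3, the SNARE gene of photoreceptor terminals, had 4.87 and 6.18 RPKM at P28 against 0 and 1.20 RPKM at P2 (2.13 ± 0.51, adjusted p = 0.0074, and 0.11 without P2 replicate 3). Elfn1, a synaptic adhesion gene of photoreceptors, had 11.6 and 9.76 RPKM at P10 against 1.10 and 4.97 RPKM at P4 (1.72 ± 0.54, adjusted p = 0.031, and 0.11 to 0.34 without P10 replicate 1, P10 replicate 4 or P4 replicate 3, and 0.22 after centring). Of 18 cone genes, Pex5l had a peak with 7.64 and 9.07 RPKM at P10 against 0.770 and 2.60 RPKM at P4 (1.89 ± 0.51, adjusted p = 0.014, and 0.081 to 0.22 without those same libraries, and 0.16 after centring). 

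Regulators of other kinds were also represented. Of 28 bZIP factor genes, the family to which NRL belongs, Bach1 had 1 first-intron peak and Bach2 had 2, genes of repressors that pair with small Maf proteins. The Bach1 peak had 2.74 and 1.38 RPKM at P2, 5.52 and 18.6 RPKM at P4, 27.4 and 37.1 RPKM at P10 and 3.37 and 4.75 RPKM at P28, and fell at P28 against P10 by -2.71 ± 0.57 (adjusted p = 0.0022), with each library left out as well. Of the Bach2 pair, one had 7.21 and 5.71 RPKM at P10 and no read at P28, at least 4.08-fold lower at P28 (adjusted p = 0.00037). Of 26 chromatin modifier genes, Hdac4, Kdm6b, Kmt2a and Rere had one each. Kmt2a, which encodes a histone H3K4 methyltransferase, had 4.84 and 12.4 RPKM at P28 against 0 and 0.991 RPKM at P2 (2.65 ± 0.51, adjusted p = 0.0016), with each library left out as well. Kdm6b, which encodes a histone H3K27 demethylase, had 8.08 and 4.27 RPKM at P28 against 21.9 and 19.5 RPKM at P10 (-1.65 ± 0.55, adjusted p = 0.032, and 0.053 to 0.29 without any P10 or P28 library, and 0.093 after centring). Of 31 genes of guidance, adhesion and growth factor signalling, Efna5, Ncam1 and Slit1 had 5 peaks, of which 1 was called higher and 2 lower at P10 than at P4, where 189 and 19 of all 567 first-intron peaks were. All 3 calls were lost on leaving out P4 replicate 3 or either P10 library, and the lower ones also without P4 replicate 4 (adjusted p between 0.088 and 0.33). The higher one, in Ncam1, was also lost after centring (0.36). Slit1, the gene of a secreted guidance cue, had 1.55 and 3.27 RPKM at P28 against 14.2 and 17.5 RPKM at P10 (-2.34 ± 0.55, adjusted p = 0.0046, and 0.059 without P10 replicate 4 and 0.070 without P28 replicate 3). No first-intron peak lay in the lists of 28 genes of glycolysis and energy metabolism, 18 bipolar cell markers, 24 progenitor and neurogenic genes, 20 markers of amacrine, horizontal and ganglion cells, 13 of Müller glia, 11 of the pigment epithelium or 17 of microglia and vessels. Peaks named by their nearest TSS were not counted in any list. Only 356 genes could be matched, so empty lists of this size do not show that these programmes lack such peaks.

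Several first introns held a group of sites, with 14 genes carrying 3 or more. Ppp2r2b, a regulatory subunit gene of protein phosphatase 2A, had 5 between bases 42840939 and 42982174 of chromosome 18, and their means at P10 ran between 3.16 and 81.2 RPKM. All 5 were in the P10 list, and 3 were lower at P28 than at P10, each a call lost without P10 replicate 1 or P28 replicate 3 (adjusted p between 0.053 and 0.24 without these or P10 replicate 4), and 2 of them also after centring (0.12 and 0.092). The 3 peaks of Xkr6, a gene of the XK family of membrane proteins, were all higher at P10 than at P4 and all lower at P28 than at P10. The strongest of them had 3.67 and 6.47 RPKM at P2, 8.63 and 23.6 RPKM at P4, 87.2 and 77.5 RPKM at P10 and 15.8 and 19.1 RPKM at P28. Its rise at P10 over P4 (2.44 ± 0.57, adjusted p = 0.0060) had an adjusted p of 0.093 without P10 replicate 1 and 0.059 without P10 replicate 4, and its fall one of 0.070 to 0.11 without either P10 library or P28 replicate 3. The third peak lost its rise without either P10 library or P4 replicate 3 (0.080 to 0.35) and after centring (0.14), and its fall without P10 replicate 1 or P28 replicate 3 (0.058 to 0.065). Both calls of the remaining Xkr6 peak held with each library left out.

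Sites within one intron were not always called alike, and no difference between such sites was tested. In Ubtd1, a ubiquitin domain gene, all 3 peaks were higher at P10 than at P4, a call lost for the first without P10 replicate 1 (adjusted p = 0.054) and for the third without P4 replicate 3 (0.080). Between P28 and P10, 1 of the 3 was called lower, though the values of the second were lower at P28 too. The first had 3.50 and 5.19 RPKM at P28 against 32.1 and 33.9 RPKM at P10 (-2.69 ± 0.53, adjusted p = 0.0014). The second had 11.8 and 14.5 RPKM at P28 against 22.6 and 18.4 RPKM at P10 and was not called there, but was higher at P28 than at P2 (2.70 ± 0.54, adjusted p = 0.0022). These P28 calls held with each library left out. In Srrm4, the gene of a neural splicing regulator, 3 of 4 peaks were lower at P28 than at P10, and 1 of those calls held with each library left out. The others were lost without P10 replicate 1, P10 replicate 4 or 1 of the P28 libraries, at adjusted p between 0.070 and 0.28, and 1 of them after centring (0.14). In Prickle1, a planar polarity gene, 2 of 3 peaks were higher at P28 than at P2, and both calls were lost without P28 replicate 4 (adjusted p = 0.065 and 0.13), and 1 of them also without P2 replicate 3 (adjusted p = 0.084). In Tiam1, an activator of Rac, the strongest peak had 0.354 and 1.12 RPKM at P28 against 6.33 and 10.4 RPKM at P2 (-2.43 ± 0.52, adjusted p = 0.0037, and 0.054 without P28 replicate 3).

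The share of peaks higher at P10 was much the same at each distance from the nearest start. Between P10 and P4, 77 of 236 peaks at 3000 to 10000 bp were higher and 2 lower, 84 of 247 were higher and 9 lower at greater distances of up to 50 kb, and 28 of 84 were higher and 8 lower beyond that. Between P28 and P10, 89, 104 and 30 of these groups were lower. Between P28 and P2 the balance differed, with 36 higher and 9 lower in the nearest group and 7 higher and 17 lower in the farthest. No test of a trend with distance was made. At the limit of the rule, the peaks just inside it were in Anp32a at 3003 bp upstream, nearest Gm4926 at 3015 bp and in Gnb1 at 3034 bp. Their P10 values were 8.54 and 8.84, 3.33 and 2.2, and 9.33 and 10.7 RPKM. The peaks just outside it were in Synrg at 2987 bp, Zfp62 at 2952 bp upstream and Arhgap23 at 2945 bp, with 39.8 and 36.3, 9.65 and 10.8, and 5.30 and 3.95 RPKM at P10. A further 226 first-intron peaks lay within 3000 bp of a TSS and were not counted here.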

How the data were processed

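NRL CUT&RUN libraries of mouse retina were analysed from the deposited tables. The submitters' processing notes list the tools MACS2 2.2.5, Bowtie2 2.3.5.1, Trimmomatic 0.38, bedtools 2.29.0, SAMtools 1.9 and Picard 2.20.8. The genome builds in these notes are ASM584v2 of Escherichia coli and GRCm38.p6 of the mouse, and roles are not stated. The labels list 15 libraries, of which 8 are quantified in the table of peaks and 7 were not analysed here. How the spike-in DNA entered the values is not stated there.

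The values of the deposited table behave as RPKM per peak. Multiplying them by a width and a library's scale returned whole reads for 100% of entries, to a tolerance of 0.001. After the first column the widths slip by 39 rows with each column, so that the width behind 56.3% to 57.6% of entries was wrong by a factor above 1.5. RPKM was recalculated from these reads with the true widths and the same scales, between 5255776 and 8014723 per library. The deposited lists, 1 per age, carry the authors' score and signal, used only to describe peaks within a list. Peak place and distance are the authors' annotation. Sequences are from a RefSeq table of GRCm38.p6.

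The test was limma 3.58.1 (R 4.3.3) on log2(RPKM + 1) (trend and robust empirical Bayes, age as factor, 8 libraries, 4 residual degrees of freedom, Benjamini-Hochberg over 8996 peaks, two-sided). The data were RPKM, so no count test was the main one, and limma-voom on the recovered reads was an alternative. Scripts were tested on simulated data. Intervals and floors of 3 reads cover counting error only. Alternatives were a pseudocount of 0.1, centring on the library median, deposited widths, peaks at or above the median mean RPKM, a 10000 bp limit, list scores of 830 or higher, an overlap of 50%, each library left out, a replicate block and, added after seeing the data, only peaks inside their gene's RefSeq span. Gene lists came from an earlier analysis. The peaks, lists and tests were chosen with earlier results of these data known.

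Named peaks were the 6 with the highest mean RPKM. For each comparison they also were the up to 5 highest and 5 lowest called differences with a mean RPKM at or above the median of all peaks (4.05), no overlap between the libraries and a protein-coding gene, 1 per gene. To these were added up to 4 peaks per gene list, genes with 3 or more peaks, and those next to the 3000 bp limit. Some peaks that meet this rule are not reported here.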

Additional observations from a re-analysis of the deposited data

How the results depend on the processing

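No called difference of a named peak changed direction under the alternatives run for it. Of 203 tests of named peaks, 118 were weaker with a pseudocount of 0.1, 93 with values as deposited and 74 after centring. The replicate block was run for 42 of the 203 and the setting of peaks at or above the median for 155. At a pseudocount of 0.1 no named rise at P10 over P4 was called, including those that held with each library left out. Pseudocount 0.1 gave 0 calls for P10 against P4, 58 for P28 against P10, 47 for P28 against P2, 2 for P4 against P2 and 184 at any age, with medians of 1.42, -1.61 and 0.72 for the first 3. Centring gave 76, 101 and 204 calls for P10 against P4, P28 against P10 and any age, and medians of 0.42, -0.66, -0.12 and, for P4 against P2, 0.11. Values as deposited gave 76, 103, 40 and 233 calls for P10 against P4, P28 against P10, P28 against P2 and any age. Limma-voom gave 2 for P4 against P2, and its other counts were within 1.5 times. Peaks at or above the median signal gave 15 for P4 against P2, 137 for P10 against P4 and 268 at any age. Peaks over 10000 bp gave 129, 137 and 69 calls for P10 against P4, P28 against P10 and P28 against P2. The causes were not tested, except that the last 2 settings hold fewer peaks.

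Leaving out 1 library gave 0 to 79 calls and medians of 0.19 to 1.03 for P4 against P2, 25 to 290 and 0.71 to 1.53 for P10 against P4, 61 to 271 and -1.31 to -1.22 for P28 against P10, 68 to 150 and 0.36 to 0.50 for P28 against P2, and 234 to 441 calls at any age. The lone library of an age was then assumed to vary like the others. Of the named calls, 5 of 44 for P10 against P4, 14 of 44 for P28 against P10 and 10 of 42 for P28 against P2 held with each library left out, and 25, 28 and 29 after centring.

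Shares of reads in first-intron peaks at P2, P4, P10 and P28 were 5.42%, 6.01%, 6.94% and 5.00% with both libraries, 3.38%, 3.72%, 4.15% and 2.84% over 10000 bp, and 3.91%, 4.35%, 5.32% and 3.89% inside the gene's RefSeq span. At P4, P10 and P28 they were 6.83%, 7.52% and 6.14% among peaks at or above the median. With 1 library they ran from 4.75% to 6.09%, 5.65% to 6.37%, 6.85% to 7.03% and 4.65% to 5.36%. The lists of P2, P4, P10 and P28 held 62, 156, 495 and 107 of the peaks, 43, 113, 381 and 72 at a score of 830 or higher, and 55, 145, 482 and 100 at an overlap of 50%, all within 1.5 times. At that score, the peaks made up 5.12%, 5.15%, 6.53% and 3.43% of these lists.

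Replicate number 4 was shared by all ages and number 3 by P2, P4 and P28, so that P10 shared only 1 number and was in no blocked comparison. Among the other ages, deviations of same-numbered libraries correlated at 0.029 to 0.085, so the numbers were not treated as pairs. With a replicate block, 11 peaks were called for P4 against P2 and 108 for P28 against P2, and the medians stayed at 0.58 and 0.46. Depth limits what can be seen, since most peaks held under 10 reads outside P10.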
